A study of Mus musculus with 9 samples.

Results

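Atrioventricular (AV) nodes of macrophage-depleted mice were compared with AV nodes of control mice by bulk RNA sequencing. The comparison used 6 of the series' 9 libraries: 3 from mice of genotype Cd11bDTR that the labels call macrophage-depleted, and 3 from mice labelled Control, all of strain C57BL/6J and all described as biological replicates. The tissue of both groups was the microdissected AV node, and total RNA went into strand-marking libraries. The third group of the series, nodes of Cx3cr1 Cx43-/- mice (3 libraries), enters only where it is named. Of 34198 gene symbols in the deposited table, the 12470 that reached at least 1 CPM (a gene's read count scaled to the library total) in at least 3 of the 6 libraries were tested. In Cd11bDTR mice the diphtheria toxin receptor is placed under a promoter of the gene for CD11b, an integrin of myeloid cells. The toxin then kills the cells that express the receptor. The labels used here name no toxin, dose, interval, age or pooling of nodes, and do not say whether the control mice were treated. Treatment, genotype and loss of macrophages cannot be told apart in this design.

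The AV node is the slow-conducting tissue that delays the impulse between atria and ventricles. Its myocytes rely on pacemaker and calcium channels more than working myocardium does, and their connexin makeup differs. Resident cardiac macrophages are scavenging cells recognised by receptors such as CD163, MRC1 (CD206), FOLR2 and LYVE1 and maintained by signals through CSF1R, and monocytes that enter the heart carry LY6C and CCR2 instead. In bulk tissue, fewer cells of a type and less RNA per cell cannot be told apart.

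The library total behind CPM was set by the authors. The listed genes held 48.7%, 42.8% and 45.3% of it in control libraries 1, 2 and 3, and 44.0%, 37.7% and 28.3% in depleted libraries 7, 8 and 9. The low values of each library were whole multiples of a smallest step of 0.0154 to 0.0192 CPM, which corresponds to totals of 52.1 to 64.9 M reads. Because the listed share differed, every change was fitted on 3 scales, namely the deposited CPM, columns brought to the same summed CPM of listed genes, and median-of-ratios scaling. Over all tested genes the median log2 change from control to depleted was -0.48 on the deposited scale, -0.17 on the common total and -0.02 with median-of-ratios. A gene was called higher or lower only where limma's Benjamini-Hochberg adjusted p was under 0.05 in the same direction on all 3 scales. The log2 changes printed are on the deposited scale, as log2(CPM + 0.5), with the limma standard error (SE), and each adjusted p is the largest of the 3. The added 0.5 CPM understates the change of weakly expressed genes, and where one group lies near 0 CPM the fitted change depends on that constant. A gene near 0 CPM in 1 group passed the filter only through the other group, which fixed its direction in advance. Such genes add to the share of a list called in that direction.

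The depleted libraries resembled each other less than the controls did. Pearson's r of log2 values between 2 libraries was 0.958 to 0.985 within the controls, 0.935 to 0.951 within the depleted group and 0.882 to 0.922 between groups. Control library 2 and depleted libraries 8 and 9 stood apart in their weakest genes: 146, 149 and 186 symbols sat at 5 to 8 reads there, against 1047 and 999 in control libraries 1 and 3 and 519 in depleted library 7. Lars2 and 7SK were highest in the same libraries. Lars2, the gene of a mitochondrial tRNA synthetase, read 124, 599 and 186 CPM in the controls and 297, 984 and 2542 CPM in the depleted libraries, and 7SK, a small nuclear RNA, 4.53, 25.01 and 6.82 and 9.80, 34.2 and 67.5 CPM. The ribosomal RNA symbol 5_8S_rRNA ranked the libraries in the same order, at 2.86, 16.08 and 3.87 CPM and 10.25, 31.9 and 73.56 CPM. What the Lars2 reads stem from was not tested. The part of these features in the changes below was not tested, and for each gene named the call was refitted with each of the 6 libraries left out.

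At the set threshold 333 genes were called higher in the depleted nodes (2.67% of 12470) and 1067 were called lower (8.56%). Of these, 150 higher and 398 lower calls remained whichever single library was left out. At least 4-fold changes were fitted for 73 of the genes called higher and 196 of those called lower. On single scales the balance shifted: 344 genes were higher and 2927 lower on deposited CPM alone, 843 and 1705 on the common total, and 1256 and 1067 with median-of-ratios. Without control library 3 the higher calls numbered 188, and without control library 1, 2 or 3 the lower calls numbered 506, 666 and 518. With no filter on low values 120 genes were higher and 565 lower, and of 175 genes named with a call 50 lost it, among them Folr2, Fcrls, Hp, Tsc22d3, Per1, Tbx3, Nppb, Ankrd1, Hbegf, Hmox1, Rpl13 and Rps28. With libraries 2, 8 and 9 all left out, an alternative chosen after seeing the data in which the 1 remaining depleted library is assumed to vary like the controls, 815 genes were higher and 1824 lower.

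**Figure D1:**
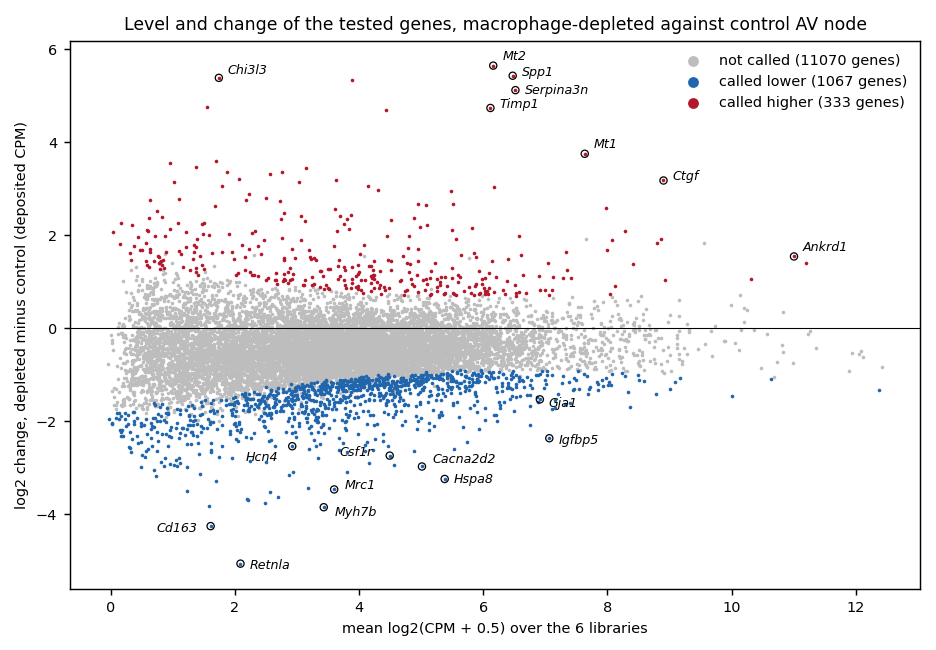
Each point is 1 of the 12470 tested genes; the x axis is its mean log2(CPM + 0.5) over the 6 libraries and the y axis its log2 change from control to macrophage-depleted on deposited CPM. Red points are the 333 genes called higher and blue points the 1067 called lower on all 3 scales; the largest rises (Mt2, Spp1, Chi3l3, Lcn2 and Serpina3n) exceed 5 log2 units and the largest falls are Retnla and Cd163.

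**Figure D2:**
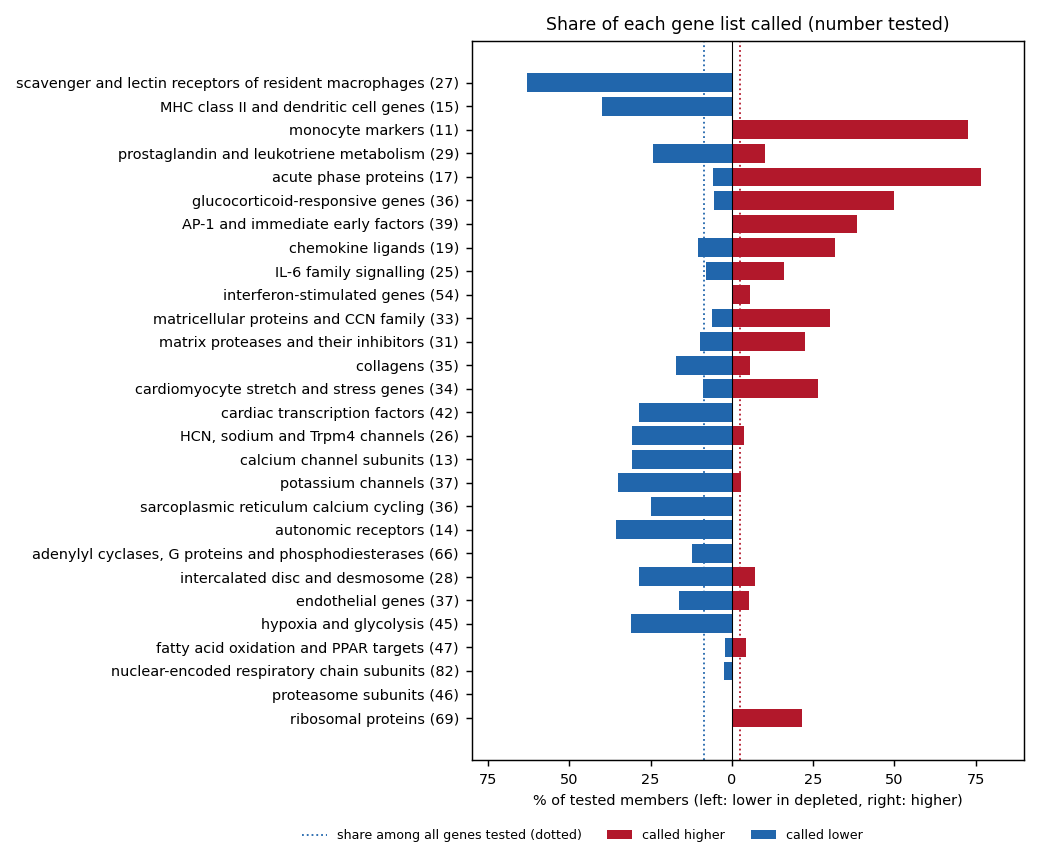
Share of the tested members of 28 gene lists called higher (red, to the right) or lower (blue, to the left) in depleted nodes, with the number tested in parentheses; dotted lines mark the shares over all genes tested, 2.67% and 8.56%. Acute phase, monocyte and glucocorticoid-responsive genes extend to the right, and macrophage receptors, ion channels and cardiac transcription factors to the left.

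Most receptors and products that mark resident macrophages were lower in the depleted nodes, though not all. Of 27 tested scavenger and lectin receptors of resident macrophages, 17 were lower and 0 higher (0% higher, 63% lower, median log2 change -1.97, against 2.67%, 8.56% and -0.48 over all genes); 14 of the 17 calls held with any library left out. Cd163, the haemoglobin-haptoglobin scavenger receptor, read 17.6, 11.2 and 10.6 CPM in the controls and 0.31, 0 and 0.34 CPM in the depleted nodes (log2 change -4.26 ± 0.43, adjusted p = 1.4e-05). Mrc1, the mannose receptor, went from 48.7, 32.7 and 39.5 CPM to 4.28, 2.47 and 2.91 CPM (log2 change -3.47 ± 0.31, adjusted p = 1e-06). For both genes every depleted library lay far below every control. Folr2, a folate receptor of resident macrophages, read 19.4, 12.9 and 15.8 CPM in the controls and 0.62, 0.02 and 3.17 CPM in the depleted nodes, where library 9 kept the most. Retnla, a secreted product of alternatively activated macrophages, stood at 21.9, 30.9 and 20.7 CPM in the controls and 0.16, 0 and 0.71 CPM in the depleted nodes, the largest fall among the genes that the naming rule took for size. Mgl2, Fcrls, Cbr2, Vsig4, Timd4, Fcna, Clec10a, Stab1, F13a1 and Pf4 fell as well, with log2 changes from -1.94 (Stab1) to -3.83 (Mgl2). Each of these calls held with any 1 library left out, and the groups did not overlap for any of them. Among the 10 uncalled members was Lyve1, a receptor shared with lymphatic endothelium, at 23.1, 10.1 and 17.4 CPM in the controls and 13.7, 17.3 and 6.25 CPM in the depleted nodes. Cd36, a fatty acid and scavenger receptor that cardiomyocytes and endothelium also express, held most of the list's summed level and was uncalled too, at 694, 609 and 655 CPM and 796, 609.96 and 484 CPM.

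Growth factor receptors and regulators of the lineage changed in both directions, with 5 of 22 tested higher and 3 lower (22.7% higher, 13.6% lower, median log2 change -0.26, against 2.67%, 8.56% and -0.48 over all genes). Csf1r, the receptor on which macrophages depend, fell from 75.4, 41.5 and 61.1 CPM to 7.77, 6.04 and 11.8 CPM (log2 change -2.74 ± 0.29, adjusted p = 0.00011), and its ligands did not pass the test, Csf1 at 54.5, 35.9 and 39 and 52.7, 36.9 and 26.1 CPM and Il34 at 2.03, 0.99 and 2.69 and 1.29, 2.92 and 2.37 CPM. Maf, a transcription factor of mature macrophages, fell, with a log2 change of -1.84. The rises included Csf2rb2, a receptor chain for CSF2 and IL-3, from 4.99, 0.65 and 2.25 CPM to 11.6, 6.98 and 6.17 CPM, with control library 2 the lowest of the 6, and Cebpb, a transcription factor of myeloid cells and of the acute phase response, by 1.72 log2 units. Of 21 tested complement genes 2 were higher and 4 lower (9.52% higher, 19% lower, median log2 change 0.36). The C1q chains, made mainly by macrophages, fell: C1qa went from 55.6, 43.1 and 61.3 CPM to 8.35, 7.12 and 11.04 CPM, and C1qb and C1qc had log2 changes of -1.99 and -2.91. The 2 rises were C4b, from 92.05, 45.7 and 67.9 CPM to 134, 150.02 and 99.1 CPM, and Clu (clusterin), an inhibitor of the terminal complex, from 1184, 620.3 and 907 CPM to 2425, 2126 and 1188 CPM. Without library 2, 3 or 8 these calls ended (adjusted p = 0.13, 0.063 and 0.071 for C4b, and 0.15, 0.1 and 0.071 for Clu). Genes of MHC class II antigen presentation and dendritic cells were lower in part. Cd74, the invariant chain that accompanies MHC class II, read 159, 75.99 and 118 CPM in the controls and 19.6, 12.97 and 23.8 CPM in the depleted nodes (log2 change -2.60 ± 0.28, adjusted p = 0.00011). In total 6 of 15 tested MHC class II and dendritic cell genes were lower and 0 higher (0% higher, 40% lower, median log2 change -1.07). The summed level of the list on the common total overlapped between groups, at 894, 921 and 928 CPM in the controls and 720, 968 and 912 CPM in the depleted nodes.

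Among transcripts shared by myeloid cells in general the shares called were no larger than over all genes. Itgam, the mouse gene for CD11b, read 8.93, 1.64 and 5.37 CPM in the controls and 9.72, 2.34 and 7.35 CPM in the depleted libraries and did not pass the test (log2 change 0.31 ± 0.41, adjusted p = 0.59), with control library 2 the lowest of the 6. Among 40 tested Fc receptors and myeloid signalling genes 1 was higher and 2 were lower (2.5% higher, 5% lower, median log2 change -0.56, against 2.67%, 8.56% and -0.48 over all genes). Ptprc (CD45), carried by all leukocytes, stood at 10.8, 10.5 and 8.25 CPM and 4.94, 3.09 and 5.79 CPM. Each depleted library lay below every control on this scale, but Ptprc did not pass the test (adjusted p = 0.21). The adaptor Tyrobp stood at 10.1, 10.1 and 9.32 and 6.33, 12.8 and 4.62 CPM (adjusted p = 0.93). Lyz2, the myeloid lysozyme, fell from 263, 216 and 255 CPM to 74.96, 103 and 73.9 CPM (log2 change -1.55 ± 0.27, adjusted p = 0.00082). Reads of Lyz2 and its near copy Lyz1 may not be separable in the authors' counting.

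Genes listed as monocyte markers were often called higher, but several of those called are not particular to monocytes. Of 22 listed, 11 passed the filter and were tested. Of these 8 were higher and 0 lower (72.7% higher, 0% lower, median log2 change 1.15, against 2.67%, 8.56% and -0.48 over all genes), 4 of them with any library left out. Chi3l3, a chitinase-like protein of alternatively activated myeloid cells with a near-identical neighbour, read 0.02, 0 and 0.03 CPM in the controls and 28.7, 26.4 and 12.4 CPM in the depleted nodes. Arg1, the arginase of such cells, read 0, 0.02 and 0.28 CPM against 1.93, 4.11 and 1.34 CPM. Chi3l3 and Arg1 passed the filter only through the depleted libraries, so the direction of their calls was fixed by the filter. Ccr2, the receptor for the chemokine Ccl2, read 6.53, 1.65 and 4.45 CPM against 6.16, 8 and 15.1 CPM and overlapped between groups (adjusted p = 0.033), and its call ended without library 2 (adjusted p = 0.17), 8 (0.061) or 9 (0.22). Plac8 rose from 1.14, 1.93 and 0.02 CPM to 6.28, 12.8 and 1.91 CPM, a call that ended without depleted library 8 (adjusted p = 0.053). The other calls were for Ly6c1, Ifitm3, Fn1 and Ace, genes that endothelial or stromal cells also express. Fn1 (fibronectin) rose from 133, 118 and 103 CPM to 289, 252 and 211 CPM, a call that ended without library 3 (adjusted p = 0.062), and the call for Ace, the angiotensin-converting enzyme, ended without library 1 (adjusted p = 0.11), 2 (0.2), 3 (0.17), 7 (0.072) or 8 (0.1). Ly6c2 (at most 2.71 CPM) fell short of the filter and was not tested.

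**Figure D3:**
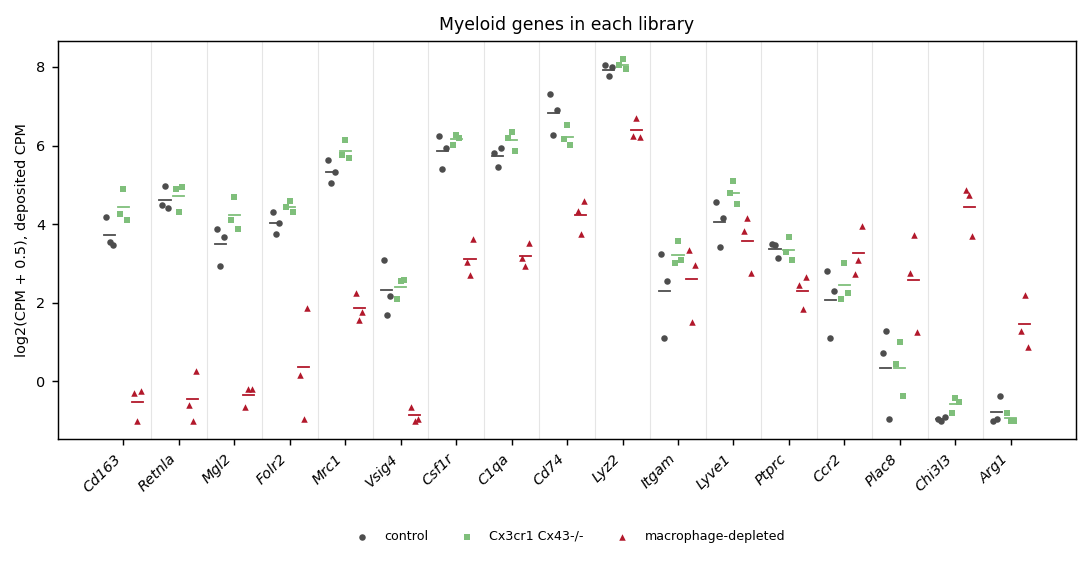
Points give log2(CPM + 0.5) of 17 myeloid genes in each library, in groups of control (circles), Cx3cr1 Cx43-/- (squares) and macrophage-depleted (triangles), with a line at each group's mean. The depleted nodes lie below both other groups for Cd163 to Lyz2, overlap the controls for Itgam, Lyve1, Ccr2 and Plac8, and lie above both other groups for Chi3l3 and Arg1.

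Markers of other cells were summed in each library on deposited CPM, without rescaling for the listed share. The sums do not measure how many cells of a type a dissection held. The 6 neutrophil markers fixed for this check summed to at most 0.18 CPM in the controls and 0.63 to 5.34 CPM in the depleted libraries, with Ly6g at 0 in all 6. T cell markers summed to at most 1.65 CPM in the controls and 3.72 CPM in the depleted libraries, and B cell markers to 0.80 to 1.92 CPM and at most 0.09 CPM. Of 5 mast cell markers 3 were called lower: Cpa3 went from 5.36, 1.82 and 6.80 CPM to 0.21, 0 and 0 CPM and Mcpt4 from 8.45, 5.22 and 8.25 CPM to 0.35, 0.84 and 1.08 CPM, both mast cell proteases. The 4 adipocyte markers summed to 22.3 to 57.3 CPM in the controls and 25.2 to 229 CPM in the depleted libraries, highest in library 8, and none was called. Of the 3 endothelial markers 2 were called lower, and they summed to 193 to 295 CPM in the controls and 94.9 to 160 CPM in the depleted nodes. The AV node and conduction markers, 11 in number, summed to 456 to 515 CPM in the controls and 100.1 to 156 CPM in the depleted nodes. Of these markers 7 were called lower, 3 were not called and 1 was not tested. Over all genes tested 2.67% were called higher and 8.56% lower. Isl1 stood at or near 0 throughout.

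Prostanoid and leukotriene genes changed in both directions. Of 29 tested, 7 were lower and 3 higher (10.3% higher, 24.1% lower, median log2 change -0.66, against 2.67%, 8.56% and -0.48 over all genes). Hpgds, the haematopoietic prostaglandin D synthase, fell from 2.86, 2.49 and 4.61 CPM to 0.45, 0 and 0 CPM, and Alox5, the first enzyme of leukotriene synthesis, from 19.9, 11.7 and 16.9 CPM to 3.78, 5.10 and 3.90 CPM (log2 change -1.78 ± 0.33, adjusted p = 0.003). Pla2g5, a secreted phospholipase, and Hpgd, which inactivates prostaglandins, fell with log2 changes of -2.39 and -2.76. In contrast Ptgs2, the inducible cyclooxygenase, rose from 3.92, 5 and 2.48 CPM to 20.6, 10.7 and 10.2 CPM (log2 change 1.71 ± 0.35, adjusted p = 0.00043) and Ptgis, the prostacyclin synthase, from 47.9, 47.9 and 53.7 CPM to 142, 102 and 84.4 CPM. The prostaglandin E synthase Ptges was not called, at 5.78, 4.41 and 5.49 CPM and 5.14, 6.29 and 2.22 CPM.

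Acute phase genes, better known from liver, were mostly higher. Of 17 tested, 13 were higher, 12 of them with any library left out, and 1 was lower (76.5% higher, 5.88% lower, median log2 change 2.35, against 2.67%, 8.56% and -0.48 over all genes). Serpina3n, a protease inhibitor, read 20.1, 12.5 and 13.5 CPM in the controls and 677, 673 and 347 CPM in the depleted nodes (log2 change 5.12 ± 0.28, adjusted p = 9.6e-11), a 36.9-fold ratio of means. Lcn2, which binds bacterial siderophores, read 1.12, 2.12 and 2.48 CPM against 133, 99.3 and 61.7 CPM (log2 change 5.33 ± 0.31, adjusted p = 6.1e-09). Saa3, a serum amyloid A of extrahepatic tissue, was nearly absent from the controls, at 0.21, 0 and 0 CPM, and reached 9.32, 34.01 and 9.86 CPM. The lowest depleted library lay far above the highest control for all 3 genes. Chi3l1, Ahsg (fetuin-A), Ptx3, Lrg1 and Itih4 rose by 4.70, 2.97, 2.35, 2.22 and 2.10 log2 units. Hp (haptoglobin) reached 58.9, 264 and 38.2 CPM from 15.4, 9.04 and 15.9 CPM, highest in depleted library 8, which also held the most adipocyte transcripts; their part in the value was not tested. Serpina3m, Serpina3i and Serpina3n belong to a cluster of close relatives, so the split of reads among them is uncertain. Itih5, an inter-alpha-inhibitor chain, moved the other way, from 30.8, 22.7 and 27.6 CPM to 4.52, 4.72 and 11.4 CPM, and its call ended without library 7 (adjusted p = 0.052).

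Receptors and feedback genes of the IL-6 family, a group of cytokines that signal through gp130 and STAT3, were in part higher. Of 25 tested members 4 were higher and 2 lower (16% higher, 8% lower, median log2 change -0.38, against 2.67%, 8.56% and -0.48 over all genes), the share lower being near that of all genes. Osmr, the oncostatin M receptor chain, rose from 18.8, 17.5 and 18.1 CPM to 63.4, 50.9 and 39.1 CPM (log2 change 1.44 ± 0.28, adjusted p = 6.3e-05). Socs3, the feedback inhibitor of this pathway, rose from 6.14, 6.06 and 5.08 CPM to 73.99, 30.5 and 16.6 CPM (log2 change 2.45 ± 0.33, adjusted p = 3.8e-05), with depleted library 7 highest and 9 lowest. Il6 itself stayed low, at 0.24, 0.82 and 0 CPM and 3.49, 1.38 and 2.42 CPM, and its call ended without control library 3 (adjusted p = 0.092) or depleted library 9 (0.056). Stat3 was not called, at 132, 81.5 and 88.4 CPM and 166, 117 and 86.2 CPM, while Stat5a and Stat5b, mediators of growth hormone and CSF2 signals, fell, with log2 changes of -1.70 and -1.62.

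Chemokine, alarmin and adhesion genes gave a shorter list. Of 19 tested chemokine ligands 6 were higher and 2 lower (31.6% higher, 10.5% lower, median log2 change -0.07, against 2.67%, 8.56% and -0.48 over all genes). Ccl2 and Ccl7, which attract CCR2-bearing monocytes, rose from 3.71, 0.52 and 1.05 CPM to 20.6, 19.6 and 15.2 CPM and from 2.21, 0 and 1.41 CPM to 17.1, 10.6 and 9.90 CPM (log2 change 3.32 ± 0.39, adjusted p = 3.8e-05; log2 change 3.20 ± 0.43, adjusted p = 0.00025). The lymphoid chemokine Ccl19 rose from 0.56, 1 and 1.01 CPM to 6.26, 6.81 and 2.17 CPM. The 2 that fell, Ccl24 (5.63, 3.89 and 4.27 CPM to 0, 0.59 and 0 CPM) and Pf4, are products of resident macrophages and platelets. Il33, an alarmin of stromal and endothelial cells, rose from 13.4, 7.01 and 9.68 CPM to 82.8, 61.1 and 26.3 CPM (log2 change 2.34 ± 0.31, adjusted p = 1.1e-05), and Selp (P-selectin) from 2.35, 0.04 and 0.45 CPM to 8.18, 2.76 and 3.33 CPM. The endothelial adhesion genes Vcam1 (adjusted p = 0.083) and Icam1 (adjusted p = 0.94) did not pass the test. Interferon-stimulated genes gave 3 higher and 0 lower calls among 54 tested (5.56% higher, 0% lower, median log2 change -0.17), and Isg15 stood at 5.52, 5.22 and 4.41 CPM and 6.33, 10.7 and 11.8 CPM (adjusted p = 0.067).

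The metallothioneins Mt1 and Mt2 were among the largest rises. These small cysteine-rich proteins bind zinc and copper, and their genes are known to respond to metals through the factor MTF-1 and to glucocorticoids. Mt2 read 10.8, 7.18 and 11.3 CPM in the controls and 806, 667 and 242 CPM in the depleted nodes (log2 change 5.65 ± 0.29, adjusted p = 2.7e-09), a 58.5-fold ratio of means. Mt1 read 57.2, 51.1 and 52.6 CPM and 1059, 1022 and 359 CPM (log2 change 3.76 ± 0.29, adjusted p = 3.8e-08), a 15.2-fold ratio. Mt3, a relative best known from brain, did not pass the test at 7.73, 4.80 and 5.63 CPM and 7.56, 12.1 and 3.28 CPM (log2 change 0.18 ± 0.37). Of 21 tested metallothionein and zinc transport genes 4 were higher and 1 lower (19% higher, 4.76% lower, median log2 change -0.20, against 2.67%, 8.56% and -0.48 over all genes). The zinc exporter Slc30a1, another known target of MTF-1, was uncalled at 15.02, 12.7 and 13.8 CPM and 17.2, 17.5 and 9.89 CPM (adjusted p = 0.9).

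The 250 bases before the start that RefSeq gives each of these 3 genes (build GRCm38.p6, plus strand) are printed because Mt1 and Mt2 rose and Mt3 was not called. The windows are chr8:94178839-94179088, chr8:94172368-94172617 and chr8:94152357-94152606, close together on chromosome 8. Capitals mark the core of the metal response element, written TGCACNC or TGCGCNC and searched on both strands.
Mt1: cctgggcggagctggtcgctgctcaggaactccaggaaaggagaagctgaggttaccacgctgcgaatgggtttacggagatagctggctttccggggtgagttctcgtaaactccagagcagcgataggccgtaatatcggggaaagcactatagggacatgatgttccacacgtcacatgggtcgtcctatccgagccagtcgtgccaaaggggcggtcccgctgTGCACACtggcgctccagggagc
Mt2: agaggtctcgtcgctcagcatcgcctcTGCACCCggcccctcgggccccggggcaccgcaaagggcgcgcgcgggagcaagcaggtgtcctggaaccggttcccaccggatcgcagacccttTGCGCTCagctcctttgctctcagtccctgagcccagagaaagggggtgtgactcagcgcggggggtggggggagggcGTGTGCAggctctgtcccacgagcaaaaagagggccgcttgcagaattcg
Mt3: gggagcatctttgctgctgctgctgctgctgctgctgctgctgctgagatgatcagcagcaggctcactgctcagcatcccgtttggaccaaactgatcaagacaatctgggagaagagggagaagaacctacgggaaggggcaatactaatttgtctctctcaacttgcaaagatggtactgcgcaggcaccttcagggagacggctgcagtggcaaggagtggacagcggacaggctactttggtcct
The Mt1 window held 1 match, the Mt2 window 3 and the Mt3 window 0. Of 32851 RefSeq windows of this length 21.4% held at least 1 match and 1.26% at least 3. Bases after the RefSeq start, or further before it, were not searched, so the counts hold for these windows only. A match is a run of letters, and the occupancy of these sites was not measured. Whether the number of matches goes with the calls was not tested.

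Glucocorticoid-responsive genes were often higher. Of 36 tested, 18 were higher (14 with any library left out) and 2 lower (50% higher, 5.56% lower, median log2 change 0.71, against 2.67%, 8.56% and -0.48 over all genes). This list shares Mt1, Mt2 and Lcn2 with the lists above, and Per1 with the clock genes. Fkbp5, a co-chaperone of the glucocorticoid receptor, rose from 13.7, 11.03 and 12.7 CPM to 98.2, 81.5 and 36.4 CPM (log2 change 2.37 ± 0.29, adjusted p = 1.1e-06), and Zbtb16, a zinc finger factor, from a range of 2.86 to 7.36 CPM to 29.5, 33.9 and 24.8 CPM (log2 change 2.57 ± 0.32, adjusted p = 9.5e-06). Tsc22d3 (GILZ) rose from 95.8, 77.7 and 70.3 CPM to 204, 244 and 108 CPM (log2 change 1.12 ± 0.28, adjusted p = 0.0019), and Cebpd, a transcription factor shared with the acute phase response, from 30.6, 15.4 and 20.1 CPM to 129, 119.7 and 52.96 CPM. On deposited CPM library 9, which had the smallest listed share (28.3%), was the lowest depleted library for each of the 18 genes. The order of single genes within the group can differ on the other scales. On the common total the list summed to 4233, 4548 and 3008 CPM in libraries 7, 8 and 9. On deposited CPM library 9 was also the lowest depleted library for Timp1 and Ctgf, and the highest for Ccr2. The receptor Nr3c1 was lower, at 48.4, 40.3 and 45.3 CPM and 22.9, 24.4 and 19.1 CPM, a call that ended without library 1 (adjusted p = 0.089), 2 (0.079), 3 (0.14) or 7 (0.092). Klf9 (40.9, 22.8 and 23.9 CPM and 24.4, 21.99 and 16.1 CPM), Klf15 and Ddit4, further known targets, were not called. Of 25 tested clock genes 4 were higher and 2 lower (16% higher, 8% lower, median log2 change -0.13). The 2 lower, Arntl (BMAL1) and Npas2, the activators of the clock, lost the call without library 1, 2, 3, 7 or 8 (adjusted p = 0.061, 0.097, 0.052, 0.1 and 0.1 for Arntl, and 0.11, 0.1, 0.088, 0.13 and 0.11 for Npas2). Gm129 (Ciart, a repressor of the clock) rose from 0.62, 0 and 0.94 CPM to 19.6, 15.5 and 3.97 CPM, Per2 from 5.22, 2.99 and 2.48 CPM to 28.4, 19.7 and 12.1 CPM and Per1 from 34.3, 10.2 and 13.8 CPM to 68.5, 48.7 and 26.9 CPM, where the groups overlapped; the hour of dissection is not given in the labels, and its part was not tested.

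Immediate early factors, which cells induce rapidly on stress or growth signals, were higher in 15 of 39 tested cases and lower in 0 (38.5% higher, 0% lower, median log2 change 0.27, against 2.67%, 8.56% and -0.48 over all genes). Myc rose from 3.54, 2.45 and 3.51 CPM to 23.7, 20.7 and 13.9 CPM (log2 change 2.42 ± 0.34, adjusted p = 6.3e-06), Atf3 from 12.3, 6.68 and 7.43 CPM to 47.2, 41.5 and 15.04 CPM and Junb from 15.7, 18.9 and 15.4 CPM to 91.8, 51.2 and 36.6 CPM. Fos, Fosb, Egr1, Maff and Nr4a3 rose too, by 1.46, 2.01, 1.24, 2.41 and 3.15 log2 units. Of 47 tested heat shock and chaperone genes 4 were higher and 3 lower (8.51% higher, 6.38% lower, median log2 change -0.22). The inducible Hspa1a rose from 1.28, 0 and 1.43 CPM to 19.5, 9.46 and 4.59 CPM, and its constitutive relative Hspa8 fell from 125, 124 and 133 CPM to 21.4, 11.6 and 8.84 CPM (log2 change -3.24 ± 0.28, adjusted p = 3.5e-07). Hspa1a has a near-identical neighbour, Hspa1b, and Hspa8 has many processed copies in the genome, so both levels are uncertain.

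**Figure D4:**
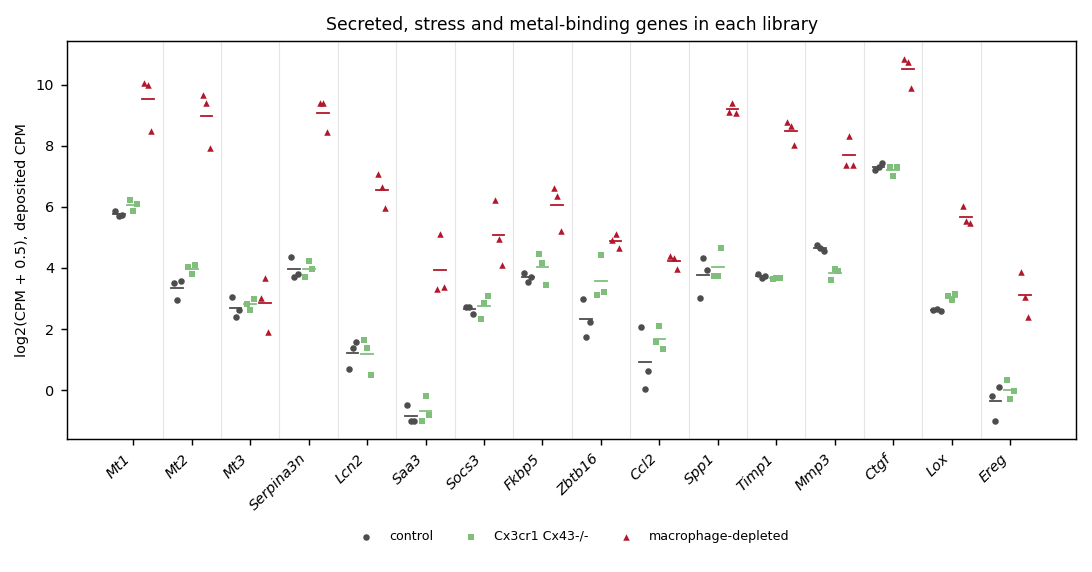
Points give log2(CPM + 0.5) of 16 secreted, stress and metal-binding genes in each library of the 3 groups, with a line at each group's mean. The depleted libraries (triangles) lie above all control (circles) and Cx3cr1 Cx43-/- (squares) libraries for each gene shown except Mt3.

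Genes of the extracellular matrix changed in both directions, with large rises of a few secreted proteins and lower calls among the collagens. Of 33 tested matricellular and CCN genes 10 were higher and 2 lower (30.3% higher, 6.06% lower, median log2 change 0.04, against 2.67%, 8.56% and -0.48 over all genes), and of 31 matrix proteases and inhibitors 7 were higher and 3 lower (22.6% higher, 9.68% lower, median log2 change -0.19). Spp1 (osteopontin) read 7.52, 19.6 and 14.8 CPM in the controls and 549.97, 675 and 537 CPM in the depleted nodes (log2 change 5.43 ± 0.28, adjusted p = 2.5e-08), and Timp1, an inhibitor of metalloproteinases, 13.6, 12.3 and 12.8 CPM and 439, 402 and 259.6 CPM (log2 change 4.74 ± 0.27, adjusted p = 1.3e-11). Ctgf, a CCN protein induced by mechanical and TGF-beta signals, rose from 148, 157 and 171 CPM to 1834, 1720.1 and 947 CPM (log2 change 3.18 ± 0.30, adjusted p = 1.2e-08). The means of these 3 genes differed 42.01-fold, 28.4-fold and 9.46-fold. Mmp3 (stromelysin 1) rose from 26.2, 24.9 and 22.9 CPM to 166, 315 and 164 CPM, and Lox, which cross-links collagen and elastin, from 5.66, 5.75 and 5.46 CPM to 64.2, 45.7 and 43.4 CPM. The membrane-type metalloproteinase Mmp15 fell from 83.6, 52.5 and 62.3 CPM to 10.8, 5.89 and 7.87 CPM (log2 change -2.95 ± 0.29, adjusted p = 3.6e-06). Collagens were called higher in 2 and lower in 6 of 35 tested cases (5.71% higher, 17.1% lower, median log2 change -0.42). The main fibrillar chains did not pass the test: Col1a1 read 332, 279.99 and 318 CPM and 245, 194 and 259.6 CPM, and Col3a1 613, 429.7 and 519 CPM and 576, 582 and 725 CPM.

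Of 15 tested EGF family genes 2 were higher and 3 lower (13.3% higher, 20% lower, median log2 change -0.69, against 2.67%, 8.56% and -0.48 over all genes). Ereg (epiregulin), a ligand of the EGF receptor family, rose from 0.38, 0 and 0.58 CPM to 14.2, 7.69 and 4.79 CPM. Hbegf rose from 10.3, 13.9 and 13.9 CPM to 53.8, 27.7 and 18.8 CPM (log2 change 1.24 ± 0.30, adjusted p = 0.0018); the toxin receptor of the transgene is itself a primate form of this gene, and whether its reads were counted under the mouse symbol was not tested. The 3 lower were Egf, Erbb4 and Lrig1, with log2 changes of -1.88, -1.26 and -1.21. These calls ended without library 1 (adjusted p = 0.17, 0.17 and 0.074) or 3 (0.082, 0.14 and 0.06). Those for Egf (0.068) and Erbb4 (0.051) also ended without 7, and that for Erbb4 without 2 (0.073) or 8 (0.08). Inhba, the activin A chain, rose from 0.42, 0 and 0.23 CPM to 3.88, 3.40 and 3.25 CPM, whereas Tgfb1 was uncalled at 23.01, 11.6 and 20.2 CPM and 23.2, 19.8 and 14.9 CPM. Of 17 tested coagulation genes 3 were higher and 1 lower (17.6% higher, 5.88% lower, median log2 change 0.10). F13a1, the clot-stabilising factor XIII made by resident macrophages, fell from 65.2, 34.9 and 48.6 CPM to 12.2, 6.64 and 7.62 CPM, and S100a10, an annexin partner that binds plasminogen, rose from 45.1, 39.6 and 49.6 CPM to 100.2, 96.5 and 69.02 CPM. Of 27 tested iron and haem genes 3 were higher and 4 lower (11.1% higher, 14.8% lower, median log2 change -0.53). The haem oxygenase Hmox1 rose from 7.39, 4.89 and 6.96 CPM to 22.9, 18.6 and 8.89 CPM and the transferrin receptor Tfrc fell from 62.2, 77.3 and 72.95 CPM to 18.3, 15.5 and 16.4 CPM (log2 change -2.05 ± 0.27, adjusted p = 8.3e-05).

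Many transcripts of the conduction system were lower in the depleted nodes. The share of each dissection that was nodal myocardium was not measured, and its part in these values was not tested. Of 26 tested genes of HCN, sodium and Trpm4 channels and the sodium pump 8 were lower, 4 of them with any library left out, and 1 was higher (3.85% higher, 30.8% lower, median log2 change -0.79, against 2.67%, 8.56% and -0.48 over all genes). Hcn4, the main pacemaker channel of nodal myocytes, read 18.9, 15.4 and 19.3 CPM in the controls and 3.80, 1.80 and 2.66 CPM in the depleted nodes (log2 change -2.54 ± 0.34, adjusted p = 0.00018), and Hcn2 11.1, 7.83 and 10.5 CPM and 2.24, 2.09 and 0.66 CPM (log2 change -2.34 ± 0.39, adjusted p = 0.0014). No depleted library reached a control level for either gene. Cntn2, a cell adhesion molecule that marks the specialised conduction system, fell from 137, 174 and 139 CPM to 37.1, 44.5 and 30.4 CPM (log2 change -1.999 ± 0.27, adjusted p = 7e-05). Cacna1g and Cacna1h, which encode T-type calcium channels, fell from 106, 114 and 98.8 CPM to 29.6, 19.8 and 23.9 CPM and from 168, 103 and 111 CPM to 29.6, 20.1 and 18.6 CPM. Cacna2d2, an auxiliary subunit, fell from 113, 79.7 and 80.4 CPM to 14.7, 12.1 and 7.48 CPM (log2 change -2.97 ± 0.28, adjusted p = 2.6e-07), while the L-type channel Cacna1c did not pass the test at 57.1, 55.3 and 52.2 CPM and 47.8, 40.8 and 34.9 CPM.

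Potassium channel and connexin genes were also lower in part. Of 37 tested potassium channel genes 13 were lower, 11 of them with any library left out, and 1 was higher (2.7% higher, 35.1% lower, median log2 change -1.08, against 2.67%, 8.56% and -0.48 over all genes). Kcnj3 and Kcnj5, which form the acetylcholine-activated channel of nodal and atrial cells, fell from 160.4, 77.3 and 111 CPM to 30.1, 49.1 and 20.9 CPM and from 155, 114 and 121 CPM to 66.6, 57.2 and 39.05 CPM. Kcnh2 (the rapid delayed rectifier), Kcne1, Kcnj2, Kcnj11, Kcnk3 and the Kv4 partner Kcnip2 fell, with log2 changes of -1.70, -2.23, -1.63, -1.58, -1.65 and -2.62. The single rise was the accessory subunit Kcne4, from 6.77, 2.45 and 3.28 CPM to 19.1, 14.5 and 13.8 CPM. Of 9 tested connexins and pannexins 4 were lower and 0 higher (0% higher, 44.4% lower, median log2 change -1.22). Gja1 (connexin 43) fell from 246, 163 and 211 CPM to 89.9, 56.8 and 68.3 CPM (log2 change -1.53 ± 0.27, adjusted p = 0.00084) and Gja5 (connexin 40) from 48.9, 26.5 and 29.9 CPM to 13.2, 6.85 and 7.98 CPM (log2 change -1.86 ± 0.30, adjusted p = 0.00087). The nodal connexins Gjc1 (adjusted p = 0.08) and Gjd3 (adjusted p = 0.22) did not pass the test.

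Some receptors for autonomic signals were lower. Of 14 tested autonomic receptor genes 5 were lower and 0 higher (0% higher, 35.7% lower, median log2 change -0.87, against 2.67%, 8.56% and -0.48 over all genes), and of 66 cyclases, G proteins, phosphodiesterases and their partners 8 were lower and 0 higher (0% higher, 12.1% lower, median log2 change -0.70), a share lower that is near that of all genes. Adrb1, the beta-1 adrenergic receptor, fell from 18.5, 13.3 and 15.3 CPM to 7.44, 4.16 and 2.62 CPM (log2 change -1.72 ± 0.34, adjusted p = 0.004), and the muscarinic receptor Chrm2 was uncalled at 119.6, 76.4 and 99.2 CPM and 106, 78.9 and 58.9 CPM (adjusted p = 0.85). Adcy5, a main cardiac adenylyl cyclase, fell from 103, 70.4 and 87.2 CPM to 50.8, 38.1 and 23.8 CPM and Prkaca, the catalytic subunit of protein kinase A, from 133, 118 and 132 CPM to 70.8, 65.5 and 44.9 CPM. The dopamine receptor Drd2 and the glucagon receptor Gcgr fell further, from 21.9, 18.9 and 26.6 CPM to 1.38, 1.02 and 1.66 CPM and from 17.8, 20.7 and 20.1 CPM to 1.10, 1.25 and 1.42 CPM. Enzymes of transmitter turnover fell too: Dbh, which makes noradrenaline, from 10.8, 12.7 and 8.06 CPM to 2.05, 3.07 and 0.54 CPM, and Ache, which degrades acetylcholine, from 19.3, 15.7 and 16.97 CPM to 4.07, 2.32 and 2.83 CPM. Th, the marker of sympathetic neurons, was at or near 0 in all 6 libraries.

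Cardiac transcription factors were lower in 12 of 42 tested cases, 6 of them with any library left out, and higher in 0 (0% higher, 28.6% lower, median log2 change -0.79, against 2.67%, 8.56% and -0.48 over all genes). Tbx3, which sets nodal identity, fell from 37.2, 37.9 and 30.1 CPM to 16.3, 11.6 and 13.5 CPM (log2 change -1.32 ± 0.28, adjusted p = 0.0092). Prox1, Irx4, Hopx, Smyd1 and Esrra fell, with log2 changes of -1.80, -2.11, -1.24, -1.42 and -1.39, each with any library left out. The calls for Gata4 (105, 79.4 and 88.2 CPM and 54.9, 29.7 and 41.4 CPM) ended without library 1 (adjusted p = 0.078), 2 (0.07), 3 (0.075) or 8 (0.078), and that for Nkx2-5 (43.9, 41.6 and 48.7 CPM and 28.8, 23.7 and 14.4 CPM) without 2 (adjusted p = 0.087), 3 (0.16) or 9 (0.084). Tbx5 and Shox2 were not called, at 114, 52.7 and 81.4 CPM and 83.4, 56.1 and 41.3 CPM, and 10.1, 7.21 and 7.55 CPM and 18.2, 11.4 and 3.94 CPM. Of 36 calcium cycling genes 9 were lower and 0 higher (0% higher, 25% lower, median log2 change -0.51). Camk2a, a calmodulin-dependent kinase, fell from 43.9, 27.6 and 36.1 CPM to 14.5, 7.92 and 7.02 CPM, while the release channel Ryr2 (608, 413 and 499 CPM and 512, 424 and 376 CPM) and the calcium pump Atp2a2 (adjusted p = 0.42) were not called.

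Stretch and stress genes of cardiomyocytes included both directions. Of 34 tested 9 were higher and 3 lower (26.5% higher, 8.82% lower, median log2 change -0.09, against 2.67%, 8.56% and -0.48 over all genes). Nppb, the B-type natriuretic peptide, rose from 129, 125 and 174 CPM to 869, 372 and 293 CPM (log2 change 1.69 ± 0.30, adjusted p = 4.4e-05), and Ankrd1, a stretch-responsive titin partner, from 1128, 1286 and 1195 CPM to 5607, 3320.1 and 2323 CPM (log2 change 1.55 ± 0.36, adjusted p = 0.001). Depleted library 7 was the highest of the 6 for both. Fhl1, a sarcomeric stretch sensor, rose from 155, 121 and 141 CPM to 937, 374 and 398 CPM and the small heat shock protein Hspb1 from 29.1, 35.98 and 37.8 CPM to 184, 95.7 and 57.1 CPM. Nppa was uncalled at 966, 195 and 531 CPM and 970.1, 518 and 366 CPM (adjusted p = 0.54). Myh7b, a minor myosin heavy chain, fell from 42.3, 37.8 and 41.3 CPM to 3.23, 1.94 and 2.02 CPM (log2 change -3.85 ± 0.32, adjusted p = 2.6e-07), and the major atrial and ventricular chain Myh6 from 10444, 7338 and 7748 CPM to 4592, 3017 and 2698 CPM, a call that ended without library 1 (adjusted p = 0.15), 2 (0.08), 3 (0.17), 8 (0.14) or 9 (0.087).

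**Figure D5:**
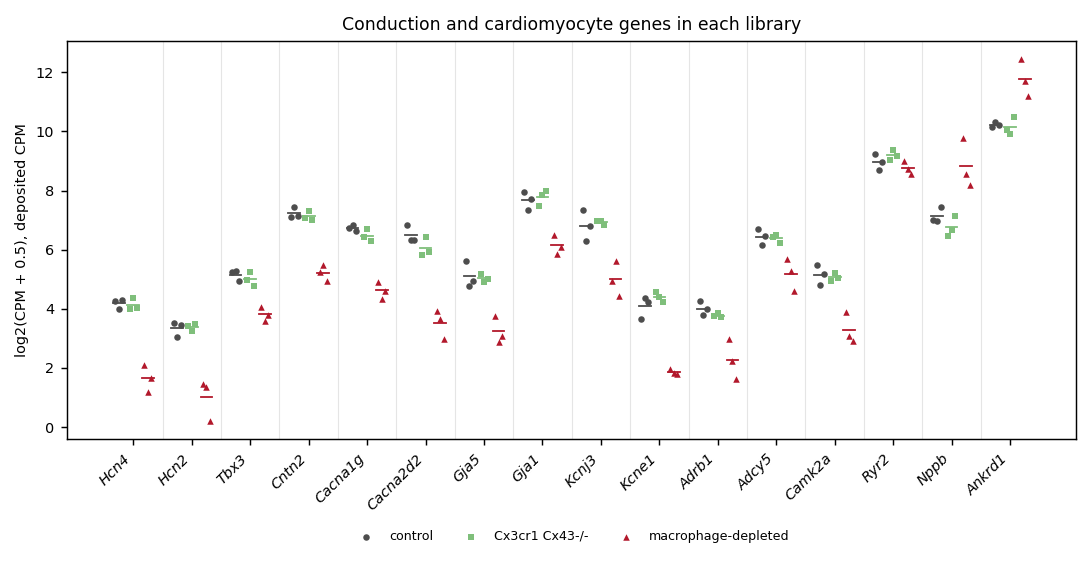
Points give log2(CPM + 0.5) of 16 conduction and cardiomyocyte genes in each library of the 3 groups, with a line at each group's mean. From Hcn4 to Camk2a the 3 depleted libraries (triangles) lie below every control (circles) and Cx3cr1 Cx43-/- (squares) library, for Ryr2 they overlap the controls, and for Nppb and Ankrd1 the depleted libraries lie above.

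Endothelial genes changed in both directions. Of 37 tested 6 were lower and 2 higher (5.41% higher, 16.2% lower, median log2 change -0.58, against 2.67%, 8.56% and -0.48 over all genes). The 3 endothelial markers (Pecam1, Cdh5 and Kdr) summed lower on deposited CPM, without overlap, as given above, and Kdr is also named next. On the common total all 37 genes of the list summed to 1661, 1383 and 1589 CPM in the controls. In the depleted nodes they summed to 1692, 1946 and 1540 CPM, so the list as a whole did not sum lower. The part of endothelial content in these values was not tested. Kdr, the main VEGF receptor, fell from 89.3, 58.1 and 78.4 CPM to 21.9, 17.9 and 20.1 CPM (log2 change -1.87 ± 0.27, adjusted p = 0.00011), its ligand Vegfa from 161, 131 and 146 CPM to 71.4, 41.9 and 42.6 CPM (log2 change -1.52 ± 0.27, adjusted p = 0.0004), and Aplnr, the apelin receptor, from 32.3, 24.3 and 31.8 CPM to 2.11, 1.53 and 3.42 CPM (log2 change -3.43 ± 0.33, adjusted p = 2.7e-05). Pecam1, present on all endothelium, was uncalled at 95.7, 69.8 and 84.3 CPM and 89.7, 61.01 and 44.4 CPM (adjusted p = 0.77). The activation-linked surface genes Ly6a and Ly6c1 rose from 62.1, 50.7 and 55.5 CPM to 197, 233 and 105 CPM and from 26.04, 26.4 and 33.1 CPM to 79.2, 96.5 and 45.6 CPM; reads of these close relatives may not be separable. Among valve and cartilage genes, which the dissection can include, 8 of 24 tested were lower and 3 higher (12.5% higher, 33.3% lower, median log2 change -0.82). Cytl1 fell from 197, 245 and 226 CPM to 54.6, 48.4 and 53.5 CPM and Chad (chondroadherin) from 89.96, 178 and 135 CPM to 35.3, 22.7 and 28.7 CPM, whereas Prg4 (lubricin) rose from 89.2, 99.9 and 121 CPM to 929, 446 and 567 CPM (log2 change 2.58 ± 0.28, adjusted p = 7e-07).

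Genes of glucose use were lower in part. Of 45 tested hypoxia and glycolysis genes 14 were lower, 10 of them with any library left out, and 0 were higher (0% higher, 31.1% lower, median log2 change -0.70, against 2.67%, 8.56% and -0.48 over all genes). Pfkm, the muscle phosphofructokinase, fell from 639, 574 and 563 CPM to 254, 181 and 131 CPM (log2 change -1.70 ± 0.29, adjusted p = 8.9e-05), Slc2a4, the insulin-responsive glucose transporter, from 201, 142 and 172 CPM to 83.7, 57.1 and 51.4 CPM and Pdk2, a pyruvate dehydrogenase kinase, from 205, 158 and 169.8 CPM to 81, 65.8 and 51.8 CPM. The fasting-responsive kinase Pdk4 rose instead, from 197, 148 and 114 CPM to 752, 767 and 456 CPM (log2 change 2.10 ± 0.29, adjusted p = 7e-07), as did Angptl4, an inhibitor of lipoprotein lipase, from 3.25, 6.69 and 2.06 CPM to 51.4, 39.9 and 24.8 CPM. Of 47 fatty acid oxidation and PPAR target genes 2 were higher, these same genes, and 1 was lower (4.26% higher, 2.13% lower, median log2 change -0.26). Of 82 nuclear-encoded respiratory chain subunits 0 were higher and 2 lower, and none of 46 proteasome subunits was called, both below the shares over all genes (2.67% and 8.56%).

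The largest changes also included genes in none of the groups above. Klhdc8a read 20.8, 20.4 and 19.4 CPM in the controls and 1.59, 0.17 and 2.03 CPM in the depleted nodes, and Fam78a 40.3, 37.4 and 43.8 CPM and 6.26, 3.88 and 3.22 CPM (log2 change -3.09 ± 0.31, adjusted p = 1.6e-06). Tet1, which oxidises methylated cytosine in DNA, fell from 5.65, 4.02 and 6.63 CPM to 0.53, 0.31 and 0 CPM, and the neuronal membrane genes Lingo3 and Slitrk6 from 8.83, 6.45 and 7.22 CPM to 0.86, 0 and 0 CPM and from 7.94, 10.8 and 10.4 CPM to 1.07, 0 and 0.94 CPM. Cbln1, a secreted synaptic organiser, fell from 6.42, 5.54 and 6.38 CPM to 0.38, 0.81 and 0 CPM. Fam46b was the one rise outside the lists, from 0.66, 1.08 and 0.30 CPM to 12.6, 11.8 and 9.53 CPM (log2 change 3.37 ± 0.41, adjusted p = 1.5e-05). Each of these calls held with any library left out, with all depleted libraries on one side of the controls.

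Ribosomal protein genes were higher in 15 of 69 tested cases, 2 of them with any library left out, and lower in 0 (21.7% higher, 0% lower, median log2 change 0.37, against 2.67%, 8.56% and -0.48 over all genes). Rpl13 rose from 18.6, 28.2 and 22.5 CPM to 48.5, 78.6 and 41.6 CPM (log2 change 1.23 ± 0.28, adjusted p = 0.00074) and Rps28 from 8.45, 12.8 and 14.2 CPM to 26.4, 40.8 and 21.4 CPM. Reads of ribosomal protein genes are shared with many pseudogenes, so these levels are uncertain. Transcript length moved with the calls: by the longest GENCODE transcript of each symbol (11354 of 12470 matched), the shortest 20% of genes had a median log2 change of -0.26, with 5.29% higher and 4.76% lower, and the longest 20% -0.54, with 1.45% higher and 10.3% lower. The ribosomal protein genes had a median longest transcript of 1151 bases, the respiratory chain subunits 1025.5 and all matched genes 3479.5. The part of length in these counts was not tested.

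The depleted nodes were set against the Cx3cr1 Cx43-/- nodes as well. That genotype, as labelled, removes connexin 43 (Gja1) by way of the macrophage gene Cx3cr1. That comparison uses the same 3 depleted libraries, so the values are given side by side and not as independent support. In it 348 genes were higher (2.79% of 12470) and 1599 lower (12.8%). Mt2 differed by 5.01 log2 units from the Cx3cr1 Cx43-/- nodes and by 5.65 from the controls, Serpina3n by 5.12 and 5.12, and Spp1 by 5.16 and 5.43. Cd163 differed by -4.95 and -4.26, Csf1r by -3.04 and -2.74, Hcn4 by -2.47 and -2.54, and Gja1 by -1.62 and -1.53. All 7 genes were called in both comparisons. Per1 and Cytl1 were called against the controls and missed the threshold against the Cx3cr1 Cx43-/- nodes (adjusted p = 0.057 and 0.26). Cytl1 read 197, 245 and 226 CPM in the controls, 87.3, 116 and 83.2 CPM in the Cx3cr1 Cx43-/- nodes and 54.6, 48.4 and 53.5 CPM in the depleted nodes. Whether the 2 changes of a gene differ from each other was not tested.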

How the data were processed

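Total RNA of microdissected AV nodes was sequenced in 9 libraries, 3 in each of 3 groups, per the labels' protocols. The deposited table holds CPM to 2 decimals; the submitters' processing notes name STAR 2.3.0, HTSeq 0.6.0, edgeR and build mm9, without roles, and the sources used here do not say how the authors set the library total. Libraries were grouped by genotype label and keep the label's number (1 to 9). From the deposited CPM, genes of at least 1 CPM in at least 3 of the 6 libraries compared were fitted on log2(CPM + 0.5) with limma 3.58.1 (R 4.3.3), trended empirical Bayes, two-sided, Benjamini-Hochberg over all 12470 genes, on 3 scales. Count tests were not run. The fit was tested on simulated data. The contrast with the Cx3cr1 Cx43-/- nodes came from a fit of all 9 libraries. Replicates are biological, per the series design text, and no batch or day is named. The comparison and the 66 gene lists were chosen with earlier results of these data known, so lists are described by counts, shares and, for most, median changes, beside those of all genes. Named genes are list members or the 20 largest rises and 20 largest falls (called, at least 5 CPM in a group, groups not overlapping). The symbols 5_8S_rRNA, 7SK, Ache, Cntn2, Lars2, Rpl13 and Rps28 were named after their values were seen. The alternatives were 11 other settings and leaving out each of the 6 libraries; a fit of libraries 1, 3 and 7 alone, and the third-group contrast on its own 6 libraries, were chosen after seeing the data. A few genes are not reported here.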

Additional observations from a re-analysis of the deposited data

How the results depend on the processing

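The counts of called genes against the controls (333 higher, 1067 lower) depended on scale and spread. Higher calls numbered 843 on the common total alone, 1256 with median-of-ratios alone, 120 with no filter on low values, 781 with library quality weights and 189 at an adjusted p under 0.01. Lower calls numbered 2927 on deposited CPM alone, 1705 on the common total alone, 565 with no filter, 1630 in a fit of all 9 libraries and 433 at an adjusted p under 0.01. Leaving out 1 library gave 188 to 470 higher and 506 to 1120 lower calls. Control libraries 1 and 3 against depleted library 7, chosen after seeing the data, gave 815 and 1824. Against the Cx3cr1 Cx43-/- nodes (348 higher, 1599 lower), higher calls numbered 1097 on the common total, 1707 with median-of-ratios, 706 with quality weights and 209 at an adjusted p under 0.01. Lower calls there numbered 5119 on deposited CPM, 2641 on the common total and 801 at an adjusted p under 0.01, and leaving out 1 library gave 238 to 651 higher and 917 to 1882 lower calls. The single scales test fewer conditions than the 3 together; the cause of the other shifts was not tested. A pseudocount of 0.1 or 2 CPM, a mean of at least 5 CPM and robust empirical Bayes kept all 4 counts within 1.5 times. Of 175 genes named with a call, 50 lost it with no filter, 16 at an adjusted p under 0.01 and at most 15 under any other setting tried, and 0 changed direction. The 50 were Ace, Adcy5, Ankrd1, Arntl, Atf3, C4b, Ccl19, Ccr2, Clu, Csf2rb2, Dbh, Egf, Egr1, Erbb4, Esrra, Fcrls, Folr2, Fos, Gadd45b, Gata4, Hbegf, Hmox1, Hp, Hpgd, Hspa1a, Hspa1b, Hspb1, Ifitm3, Il6, Irx4, Itih5, Kcna1, Lars2, Myh6, Nkx2-5, Npas2, Nppb, Nr3c1, Nr4a3, Per1, Plac8, Ppp1r15a, Rpl13, Rps28, Selp, Smyd1, Tbx3, Trpm4, Tsc22d3 and Wif1. Hp was among the 2 named genes that lost the call with robust empirical Bayes, and Hpgd and Trpm4 were among the 16 that lost it at an adjusted p under 0.01. No paired analysis was possible because the labels number the libraries 1 to 9 with no number shared between groups. With 3 libraries a group, the number of libraries limits which changes can pass the test.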

Other observations

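Growth arrest and stress response genes outside the comparisons above were higher in a minority of cases. Of 36 tested p53 target and cell death genes 6 were higher and 1 lower in the depleted nodes (16.7% higher, 2.78% lower, median log2 change -0.34, against 2.67%, 8.56% and -0.48 over all genes). Gadd45g, a growth arrest gene, read 19.04, 16.9 and 16.9 CPM in the controls and 222, 96.7 and 70.7 CPM in the depleted nodes (log2 change 2.67 ± 0.29, adjusted p = 9.9e-07), and Gadd45b 6.96, 5.69 and 5.63 CPM and 37.1, 23.7 and 11.8 CPM (log2 change 1.77 ± 0.33, adjusted p = 8.4e-05). Cdkn1a (p21), a cell cycle inhibitor, rose from 34.7, 27.2 and 34.2 CPM to 92.4, 62.4 and 61.5 CPM (log2 change 1.14 ± 0.27, adjusted p = 0.0012). Of 39 tested cell cycle genes 2 were higher and 1 lower (5.13% higher, 2.56% lower, median log2 change 0.30), with Ccnd2 (cyclin D2) falling from 72.95, 46.7 and 55.8 CPM to 25.3, 16.2 and 21.2 CPM (log2 change -1.46 ± 0.28, adjusted p = 0.0029). Of 36 unfolded protein and integrated stress response genes 3 were higher and 0 lower (8.33% higher, 0% lower, median log2 change -0.17); Ppp1r15a (GADD34) rose from 16.6, 14.3 and 17.9 CPM to 78.9, 39.3 and 27.1 CPM (log2 change 1.41 ± 0.30, adjusted p = 0.00026).

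Stromal and nerve genes also held single large changes. Cthrc1, a secreted protein of activated fibroblasts, rose from 0.69, 0.78 and 0.89 CPM to 4.14, 4.87 and 9.02 CPM (log2 change 2.27 ± 0.44, adjusted p = 0.0012), and Wif1, a secreted WNT inhibitor, fell from 27.9, 46.5 and 49.8 CPM to 6.04, 3.95 and 12.1 CPM (log2 change -2.51 ± 0.32, adjusted p = 0.003). Fbn2 (fibrillin 2) fell from 5.63, 7.96 and 7.83 CPM to 0.69, 0.63 and 0.89 CPM (log2 change -2.62 ± 0.43, adjusted p = 0.0011). Of 28 tested fibroblast genes 4 were higher and 2 lower (14.3% higher, 7.14% lower, median log2 change -0.26, against 2.67%, 8.56% and -0.48 over all genes). Of 20 Schwann cell and myelin genes 3 were lower and 0 higher (0% higher, 15% lower, median log2 change -0.81), among them Kcna1, an axonal potassium channel, at 18.1, 15.4 and 17.5 CPM in the controls and 3.64, 3.20 and 5.90 CPM in the depleted nodes (log2 change -1.92 ± 0.33, adjusted p = 0.005); the 4 defining Schwann markers summed to 26.3 to 41.8 CPM and 11.1 to 17.1 CPM, and their part in the change of Kcna1 was not tested. Slc7a7, an amino acid transporter of macrophages and epithelia, fell from 30.8, 13.03 and 19.8 CPM to 3.35, 6.48 and 2.48 CPM (log2 change -2.25 ± 0.34, adjusted p = 0.0015). Each gene named with a test here kept its call with any library left out.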
